A study of Mus musculus with 4 samples.

Results

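The genes described here are the Rab GTPases of vesicle traffic, 59 of the 40213 gene symbols in the deposited files, in mouse RAW264.7 macrophages treated with a material labelled CuNZ@Gel or one labelled Gel. They were chosen by symbol alone, as Rab followed by a number and at most 1 letter from a to d, and the rule uses no measured value. Of the 59, 41 reached 1 scaled CPM in at least 2 libraries and were tested, and 18 did not reach that level. Scaled CPM is the deposited value taken off its log scale, CPM divided by 1 further factor for each library.

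Rab proteins are small GTPases of the Ras superfamily that mark membranes and direct vesicle budding, transport, tethering and fusion. Exchange factors load them with GTP, GTPase-activating proteins switch them off, and in the GTP form they recruit effectors such as tethers, motors and kinases. A macrophage uses early endosomal Rabs for uptake, late endosomal and phagosomal Rabs for maturation and degradation, recycling Rabs to return receptors to the surface, and secretory and Golgi Rabs to deliver newly made proteins.

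RAW264.7 is an established mouse macrophage line. RNA was taken from 2 libraries of cells with CuNZ@Gel and 2 of cells with Gel, after 48 h of treatment. The treatment text in the labels names CuNZ@Gel alone, and for the Gel cells the treatment was taken from the sample titles, where CuNZ is not spelled out. Nothing in the labels says that the libraries of a group were separate cultures, so the p-values below rest on the spread among 4 libraries and that spread may be technical.

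The libraries held between 13708000 and 14868000 reads, recovered from the smallest step in the values and rounded. Across tested genes the 2 libraries of a group correlated at a Pearson r of 0.995 in both groups, against 0.930 to 0.938 between groups. All 8 macrophage markers on the list, among them Adgre1, Csf1r and Cd68, were at 1 scaled CPM or more in every library. Their summed level was 9654 and 9386 scaled CPM in the CuNZ@Gel libraries, against 6172 and 6376 in the Gel libraries, of which Lyz2 alone made up 5888 ± 159 with CuNZ@Gel and 3079 ± 107 with Gel (SD, n = 2 each). Of the other markers Adgre1, Csf1r, Itgam and Cd14 were raised, Cd68 was lowered, and Spi1 and Mpeg1 were not called. The part of these differences in the results below was not tested. The summed markers of fibroblasts, epithelial cells, T cells and B cells each stayed at or below 5.61 scaled CPM in every library, and Cd3e, Cd3g and Ms4a1 were listed at 0. These are bulk samples, in which fewer cells of a type and less RNA per cell cannot be told apart.

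With CuNZ@Gel, Rab5b, Rab5c and Rab21 of early endosomes, Rab11a and Rab15 of recycling endosomes and Rab6a of the Golgi were higher. Rab9, Rab24 and Rab29, assigned to late endosomes from general knowledge, were lower. So were Rab34 and Rab32 of phagosomes and lysosome-related organelles. These classes were mixed, since Rab7 of late endosomes was raised (log2 change 0.18), Rab35 of recycling endosomes was lowered (-0.21) and Rab5a was not called. The late endosomal members summed to 560 scaled CPM with CuNZ@Gel and 557 with Gel. The changes were moderate, mostly under 2-fold. Only Rab15, raised, and Rab34, lowered, reached a log2 change of 1 among the 41 tested members, whereas 13.2% of the 11588 tested genes did so.

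At an adjusted p of 0.05 (limma, Benjamini-Hochberg over all tested genes), 21 of the 41 members were called. That was 51.2%, beside 67.1% of all tested genes. By compartment class the share called ran from 37.5% (endoplasmic reticulum and Golgi) to 66.7% (late endosomes, and members in no compartment). The 66.7%, from classes of 6 and 3 tested members, is close to the share of all tested genes. Differences between single classes and all genes were not tested. Of the members, 10 were raised and 11 lowered, where 32.2% of all tested genes were raised and 34.8% lowered. The median log2 change of the members was -0.03, as was that of all tested genes. Their median absolute log2 change was 0.24, against 0.41 over all tested genes. In 30 of the 41 members the CuNZ@Gel and Gel values did not overlap, while the same held for 83.2% of all tested genes. Against a minimum change of 1.5-fold, 2 members passed, or 4.88%, beside 16.9% of all tested genes. With scaling by total reads only, which shifts the median of all genes by 0.18 on the log2 scale, 16 members were raised and 9 lowered, and the shares of all genes were 43.4% and 24.7%.

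**Figure D1:**
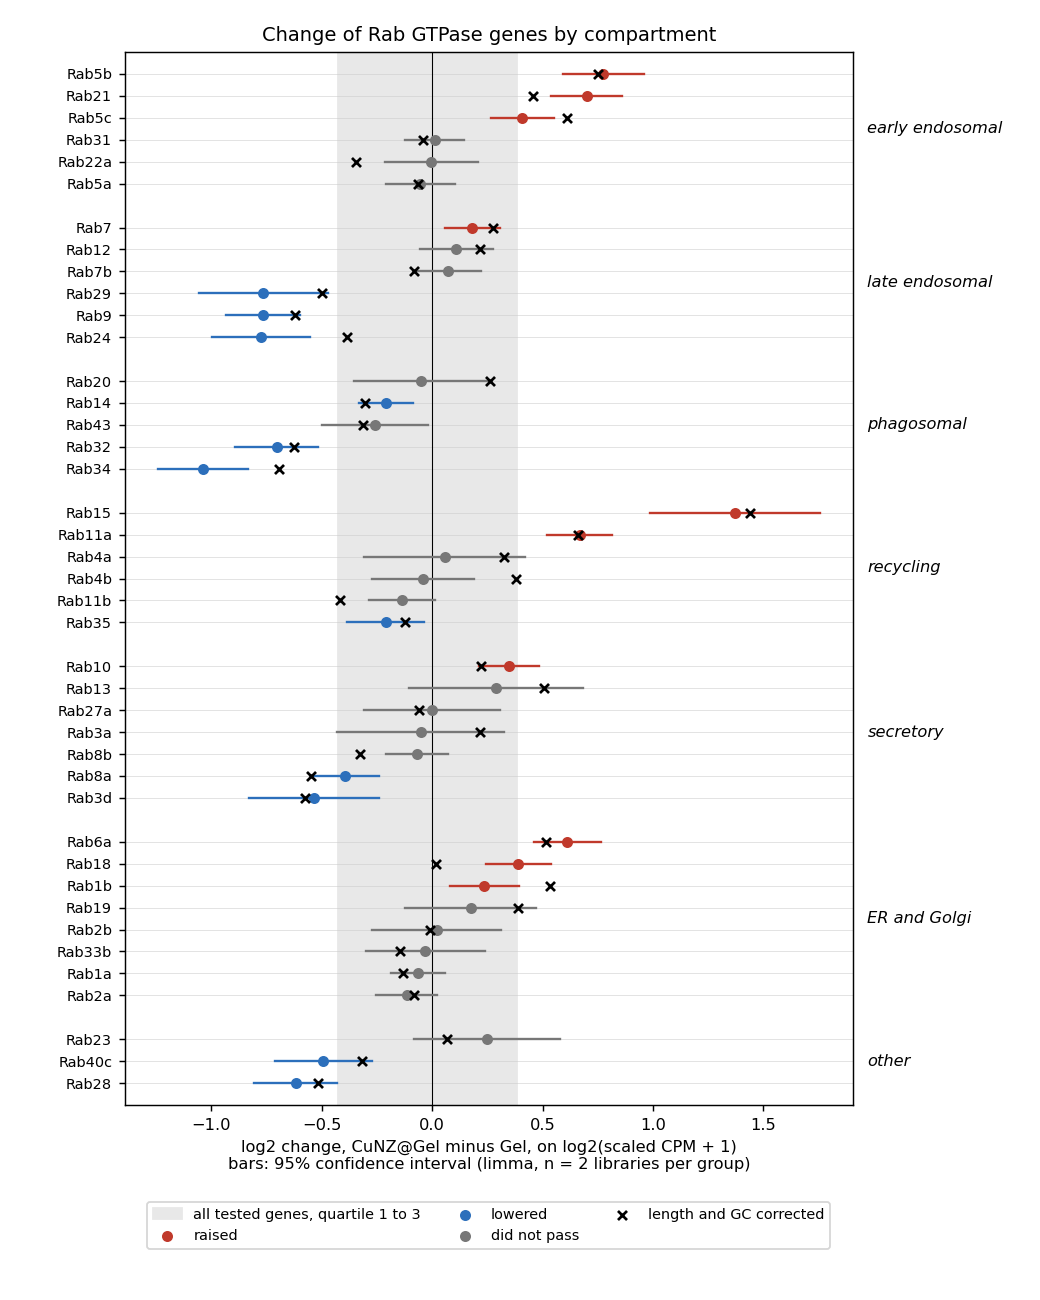
Log2 change of each tested Rab member, CuNZ@Gel minus Gel, with its 95% interval, ordered within compartment classes; colours mark members called raised, lowered or not called, crosses the change corrected for length and GC content, and the grey band the quartiles of all tested genes, -0.43 and 0.38. Of 41 members, 10 lie to the raised side, 11 to the lowered side and 20 are not called, with Rab15 at 1.37 and Rab34 at -1.04 as the ends.

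Early endosomes receive cargo just taken up at the plasma membrane. Of the 6 Rabs assigned to them, all 6 were tested, 3 were raised, none was lowered, and the median log2 change was 0.21. The share called was 50%, beside 67.1% of all tested genes. After correction for length and GC content 3 were raised and 1 was lowered. Rab5b, an isoform of the Rab5 that governs early endosome fusion, had 62.3 and 60.4 scaled CPM in the CuNZ@Gel libraries, against 38.1 and 33.0 in the Gel libraries. Both CuNZ@Gel values lay above both Gel values, and the log2 change was 0.77 (SE 0.09, adjusted p = 1.28e-07). Rab21, which acts in the endocytosis of integrins, had 81.5 and 78.2 scaled CPM with CuNZ@Gel and 47.7 and 49.9 with Gel. The groups stood clear of each other again, with a log2 change of 0.70 (SE 0.08, adjusted p = 7.54e-08), or 0.46 once length and GC content were corrected for. Rab5c reached 153 and 150 scaled CPM with CuNZ@Gel, against 120 and 108 with Gel, and rose by a log2 change of 0.41 (SE 0.07, adjusted p = 2.33e-05).

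Rab5a, the best studied Rab5 isoform, did not follow the other Rab5 genes past the threshold. It had 64.2 and 65.8 scaled CPM with CuNZ@Gel and 68.6 and 66.5 with Gel, a log2 change of -0.06 with a 95% interval of -0.21 to 0.10 (adjusted p = 0.530). That interval leaves room for a small fall, but not for a rise of the size of Rab5b. Rab31, a Rab5 relative of the trans-Golgi to endosome route, had means of 159 and 158 scaled CPM with CuNZ@Gel and Gel. Rab22a, another Rab5 relative, averaged 27.2 and 27.3 scaled CPM in the same groups and was not called. After correction for length and GC content Rab22a was lowered, at -0.35 (adjusted p = 0.00325). The summed level of the class was 544 ± 10.0 scaled CPM with CuNZ@Gel and 451 ± 15.2 with Gel (SD, n = 2 each).

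Late endosomes pass cargo on to lysosomes. Of 8 Rabs in this class 6 were tested, 1 was raised and 3 were lowered; the median log2 change was -0.35. Rab9, which returns mannose 6-phosphate receptors from late endosomes to the Golgi, had 37.8 and 40.0 scaled CPM with CuNZ@Gel, against 65.3 and 68.5 with Gel. The libraries of the 2 groups did not overlap, and its log2 change was -0.77 (SE 0.08, adjusted p = 4.68e-08). Rab24, linked to autophagy, had 17.5 and 20.1 scaled CPM with CuNZ@Gel, against 34.4 and 31.2 with Gel. It fell by 0.77 on the log2 scale (SE 0.11, adjusted p = 1.93e-06), and by 0.39 after correction for length and GC content (adjusted p = 0.0013). Rab29, which recruits the kinase LRRK2 to membranes, had 6.24 and 6.92 scaled CPM with CuNZ@Gel and 11.7 and 12.1 with Gel, also without overlap, a log2 change of -0.77 (SE 0.14, adjusted p = 6.73e-05) or -0.50 after that correction.

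The Rab24 exons, over all its transcripts, overlap those of Prelid1 on the opposite strand over 1258 bases. The transcript that gave the length of Rab24 has 1168 bases. The use of strand in counting is not given in the sources used here. Prelid1, a mitochondrial lipid transfer gene, averaged 201 scaled CPM with CuNZ@Gel and 234 with Gel. It was lowered too (log2 change -0.22, adjusted p = 0.00501), and its part in the Rab24 value was not tested.

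Rab7, the Rab of fusion with lysosomes, moved the other way from Rab9. It had 366 and 348 scaled CPM in the CuNZ@Gel libraries, against 308 and 322 in the Gel libraries, a log2 change of 0.18 (SE 0.06, adjusted p = 0.0115). This small rise was not past the threshold without Gel replicate 1 (0.15, adjusted p = 0.154), without CuNZ@Gel replicate 1 (0.14, adjusted p = 0.0887) or with no filter on low values (0.18, adjusted p = 0.0528); it was 0.37 with total reads only and 0.27 after correction for length and GC content. Rab7b averaged 84.3 scaled CPM with CuNZ@Gel and 80.2 with Gel, and Rab12 54.4 and 50.4 in the same groups, neither past the threshold. The class as a whole summed to 560 ± 13.6 scaled CPM with CuNZ@Gel and 557 ± 9.1 with Gel (SD, n = 2 each).

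Phagosomal Rabs and Rabs of lysosome-related organelles act in the maturation of particles that a macrophage has engulfed. Of 7 in this class 5 were tested, none was raised, 3 were lowered, and the median log2 change was -0.26. The share called was 60% of these 5, beside 67.1% of all tested genes. Rab34, which places lysosomes near the cell centre and acts on macropinosomes and phagosomes, had 20.0 and 22.0 scaled CPM with CuNZ@Gel, against 46.4 and 42.0 with Gel. Both CuNZ@Gel values were below both Gel values, the log2 change was -1.04 (SE 0.10, adjusted p = 8.35e-09), and it passed the minimum change of 1.5-fold (adjusted p = 0.000818). Rab32, of melanosomes and of defence against bacteria living in vacuoles, had 26.5 and 28.2 scaled CPM with CuNZ@Gel, against 44.8 and 45.6 with Gel. It too was lower in both CuNZ@Gel libraries, with a log2 change of -0.70 (SE 0.09, adjusted p = 7.37e-07).

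Rab14, which travels between the trans-Golgi network, endosomes and phagosomes, had 253 and 254 scaled CPM with CuNZ@Gel and 293 and 294 with Gel. Its change was small, -0.21 on the log2 scale (SE 0.06, adjusted p = 0.0036), and with total reads only it was -0.02 (adjusted p = 0.756). Rab43 averaged 17.0 scaled CPM with CuNZ@Gel and 20.6 with Gel, and its adjusted p of 0.0514 just missed the threshold. The Rab43 exons share 4164 bases with Gm45140 on the same strand, which is not among the deposited symbols. The part of this overlap in the Rab43 value was not tested. Rab20, another phagosomal Rab, averaged 7.66 and 7.95 scaled CPM in the same groups. Summed over the class, the level was 327 ± 3.3 scaled CPM with CuNZ@Gel and 412 ± 2.6 with Gel (SD, n = 2 each).

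Promoter windows are shown for the 4 of these endolysosomal Rabs that hold TCACGTGA or TGANTCA, in genes that were raised (Rab21), lowered (Rab24 and Rab34) and not called (Rab5a). Windows run from 250 bases before to 50 bases after each RefSeq start in GRCm38.p6, and 48 of the 59 members had at least 1, with 60 windows in all. Both strands were searched for TCACGTGA, the palindromic E-box recognised by TFEB and its relatives, for TGACNNNGC, the core of the antioxidant response element, and for TGANTCA, the AP-1 element. TCACGTGA was found in 0.974% of all 32851 windows and in 3 of the 60 member windows, those of Rab21, Rab24 and Rab5a. TGANTCA was found in 7.81% of all windows and in 3 of the 60 member windows, those of Rab15, Rab34 and Rab39b. TGACNNNGC was found in 12.4% of all windows and in 10 of the 60 member windows, those of 9 members, Rab7, Rab8a and Rab24 among them. Letters of TGACNNNGC can overlap those of TGANTCA, and in the Rab24 window a TGACNNNGC match begins within TCACGTGA. The windows follow 5′ to 3′ on the strand of the gene, with the motif in capitals. Rab21 lies on the minus strand at chr10:115315542-115315841, Rab24 on the minus strand at chr13:55321931-55322230, Rab5a on the plus strand at chr17:53478984-53479283 and Rab34 on the plus strand at chr11:78188177-78188476.
Rab21: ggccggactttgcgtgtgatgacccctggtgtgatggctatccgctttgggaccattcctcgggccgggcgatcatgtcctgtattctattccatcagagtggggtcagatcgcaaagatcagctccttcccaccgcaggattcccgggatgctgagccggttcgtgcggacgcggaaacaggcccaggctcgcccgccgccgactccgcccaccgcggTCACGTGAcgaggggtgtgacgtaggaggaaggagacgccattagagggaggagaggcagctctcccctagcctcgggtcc
Rab24: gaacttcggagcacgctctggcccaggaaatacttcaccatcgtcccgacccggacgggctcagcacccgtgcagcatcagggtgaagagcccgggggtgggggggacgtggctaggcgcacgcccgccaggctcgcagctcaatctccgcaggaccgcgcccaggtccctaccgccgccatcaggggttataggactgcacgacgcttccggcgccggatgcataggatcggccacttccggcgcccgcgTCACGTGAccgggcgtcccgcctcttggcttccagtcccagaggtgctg
Rab5a: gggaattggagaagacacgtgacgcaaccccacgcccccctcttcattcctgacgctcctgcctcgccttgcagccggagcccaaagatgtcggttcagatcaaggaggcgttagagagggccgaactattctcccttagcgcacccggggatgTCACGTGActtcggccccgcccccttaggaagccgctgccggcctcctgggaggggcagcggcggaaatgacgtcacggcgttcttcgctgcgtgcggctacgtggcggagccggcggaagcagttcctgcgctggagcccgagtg
Rab34: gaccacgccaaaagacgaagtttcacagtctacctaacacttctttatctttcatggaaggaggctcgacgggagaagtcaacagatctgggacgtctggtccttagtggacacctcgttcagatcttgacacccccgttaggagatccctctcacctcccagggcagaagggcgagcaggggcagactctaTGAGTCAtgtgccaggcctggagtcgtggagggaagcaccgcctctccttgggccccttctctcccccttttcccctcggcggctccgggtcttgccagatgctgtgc

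Counted from the start of transcription, the first base of the motif lay at -31 in Rab21, at 2 in Rab24, at -96 in Rab5a and at -58 in Rab34. Of the 3 genes with TCACGTGA, Rab21 was raised by 0.70 on the log2 scale, Rab24 was lowered by 0.77 and Rab5a was not called. Of the genes with TGANTCA, Rab15 was raised, Rab34 was lowered, and Rab39b was listed at 0 in every library. A match describes the letters of the window and shows no binding.

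Recycling Rabs return membrane and receptors to the cell surface. Of 8 in the class 6 were tested, 2 rose and 1 fell, and the median log2 change was 0.01. After correction for length and GC content 3 rose and 1 fell, with a median of 0.35. Rab11a, the principal Rab of the recycling endosome, had 116 and 126 scaled CPM with CuNZ@Gel, against 76.7 and 74.8 with Gel. The groups lay well apart, and the level was 1.60 times as high with CuNZ@Gel, a log2 change of 0.67 (SE 0.07, adjusted p = 5.02e-08). Rab15, best known from recycling endosomes of nerve cells, was low throughout, with 5.42 and 6.16 scaled CPM with CuNZ@Gel and 1.96 and 1.32 with Gel. It showed the largest change of the tested members, 3.53-fold in scaled CPM and 1.37 on the log2 scale (SE 0.18, adjusted p = 1.37e-06; adjusted p = 0.00166 against a minimum of 1.5-fold).

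Rab35, a Rab of fast recycling from the plasma membrane, had 41.7 and 42.3 scaled CPM with CuNZ@Gel, against 48.9 and 48.7 with Gel. The difference was small, at -0.21 on the log2 scale (SE 0.08, adjusted p = 0.0295), and it was not past the threshold without any 1 of the 4 libraries (-0.21 and -0.21 without Gel replicates 1 and 2, -0.20 and -0.22 without CuNZ@Gel replicates 1 and 2, adjusted p between 0.0637 and 0.123). Scaling ended the call as well, with -0.18 under upper-quartile factors and -0.03 with total reads only, and so did correction for length and GC content (-0.12, adjusted p = 0.138). Rab11b, the other Rab11 gene tested, averaged 75.1 scaled CPM with CuNZ@Gel and 82.7 with Gel (log2 change -0.14, 95% interval -0.29 to 0.01, adjusted p = 0.0970). After correction for length and GC content Rab11b was lowered, at -0.42 (adjusted p = 8.41e-06). Rab4a and Rab4b, of fast recycling from early endosomes, had log2 changes of 0.06 and -0.04 and were not called. The Rab4b exons share 1280 bases with Gm21983 on the same strand, which is not among the deposited symbols. The part of this overlap in the Rab4b value was not tested. In sum, the class stood at 271 ± 10.7 scaled CPM with CuNZ@Gel and 236 ± 2.2 with Gel (SD, n = 2 each).

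Secretory Rabs take vesicles to the plasma membrane. Of 13 in the class 7 were tested, 1 rose and 2 fell, and the median log2 change was -0.05. Rab10, which carries Golgi and endosomal vesicles to the surface and in macrophages supplies Toll-like receptor 4, had 219 and 211 scaled CPM with CuNZ@Gel, against 161 and 177 with Gel. Its groups did not overlap, and the log2 change was 0.35 (SE 0.07, adjusted p = 8.17e-05), or 0.22 after correction for length and GC content and 0.54 with total reads only. Rab10os, on the opposite strand, shares 143 exon bases with it and averaged 3.64 scaled CPM with CuNZ@Gel and 4.73 with Gel. Rab8a, of polarized exocytosis and ruffles, had 70.7 and 70.9 scaled CPM with CuNZ@Gel, against 96.8 and 90.1 with Gel. It fell by 0.39 on the log2 scale (SE 0.07, adjusted p = 6.87e-05), and by 0.21 with total reads only. Rab3d, of secretory granules, had 6.55 and 7.17 scaled CPM with CuNZ@Gel and 10.5 and 10.3 with Gel, again without overlap, a log2 change of -0.54 (SE 0.14, adjusted p = 0.00232).

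Rab27a, which docks granules and exosomes at the plasma membrane, had 6.93 and 6.79 scaled CPM with CuNZ@Gel and 6.74 and 7.01 with Gel. The libraries of the groups overlapped, and the log2 change was 0.00 with a 95% interval of -0.31 to 0.31 (adjusted p = 0.994). Rab8b had a mean of 155 scaled CPM with CuNZ@Gel and 162 with Gel, and its libraries overlapped between groups. Its log2 change of -0.07 was not called, but after correction for length and GC content it was -0.33 (adjusted p = 1.38e-05). Rab3a and Rab13 stayed at or below 6.31 scaled CPM in every library and were not called. The summed class level was 464 ± 13.3 scaled CPM with CuNZ@Gel and 451 ± 15.5 with Gel (SD, n = 2 each).

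Rabs of the endoplasmic reticulum and the Golgi apparatus carry newly made proteins. Of 12 in the class 8 were tested, 3 rose and none fell, and the median log2 change was 0.10. After correction for length and GC content 3 rose and 1 fell, with a median of 0.00. Rab6a, of traffic within and from the Golgi, had 115 and 106 scaled CPM with CuNZ@Gel, against 69.3 and 73.9 with Gel. The groups stood apart, with a log2 change of 0.61 (SE 0.07, adjusted p = 2.66e-07). Its exons overlap those of Mrpl48, a mitochondrial ribosomal protein gene on the opposite strand, over 708 bases. Mrpl48 averaged 34.6 scaled CPM with CuNZ@Gel and 76.9 with Gel, and its part in the Rab6a value was not tested.

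Rab18, of lipid droplets and the endoplasmic reticulum, had 92.3 and 94.1 scaled CPM with CuNZ@Gel, against 69.9 and 71.9 with Gel. Its log2 change of 0.39 (SE 0.07, adjusted p = 6.3e-05) was 0.02 after correction for length and GC content (adjusted p = 0.821). The transcript that gave its length has 6515 bases, the most among the raised members. Rab1b, of transport between endoplasmic reticulum and Golgi, had 71.3 and 74.0 scaled CPM with CuNZ@Gel and 62.7 and 60.3 with Gel. It rose by 0.24 (SE 0.08, adjusted p = 0.00907), and by 0.53 after that correction and 0.42 with total reads only. Without Gel replicate 2 (0.21, adjusted p = 0.0854) or CuNZ@Gel replicate 2 (0.21, adjusted p = 0.0576) Rab1b was not past the threshold. Rab1a, its paralogue, averaged 257 scaled CPM with CuNZ@Gel and 268 with Gel and was not called. Rab2a, Rab2b, Rab19 and Rab33b were not called either, with log2 changes between -0.12 and 0.17. Together the class had 688 ± 2.5 scaled CPM with CuNZ@Gel and 636 ± 5.9 with Gel (SD, n = 2 each).

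Of the 5 members placed in no compartment 3 were tested and 2 were lowered. Rab28, known from cilia and photoreceptors, had 31.0 and 33.4 scaled CPM with CuNZ@Gel, against 52.6 and 47.4 with Gel. The values did not overlap, and the log2 change was -0.62 (SE 0.09, adjusted p = 4.23e-06). Rab40c, whose protein carries a SOCS box that binds a ubiquitin ligase, had 18.7 and 20.4 scaled CPM with CuNZ@Gel, against 28.8 and 27.0 with Gel. It fell by 0.49 on the log2 scale (SE 0.11, adjusted p = 0.000325), and by 0.31 with total reads only and 0.32 after correction for length and GC content. Rab23, of Hedgehog signalling, was not called (log2 change 0.25, adjusted p = 0.173).

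**Figure D2:**
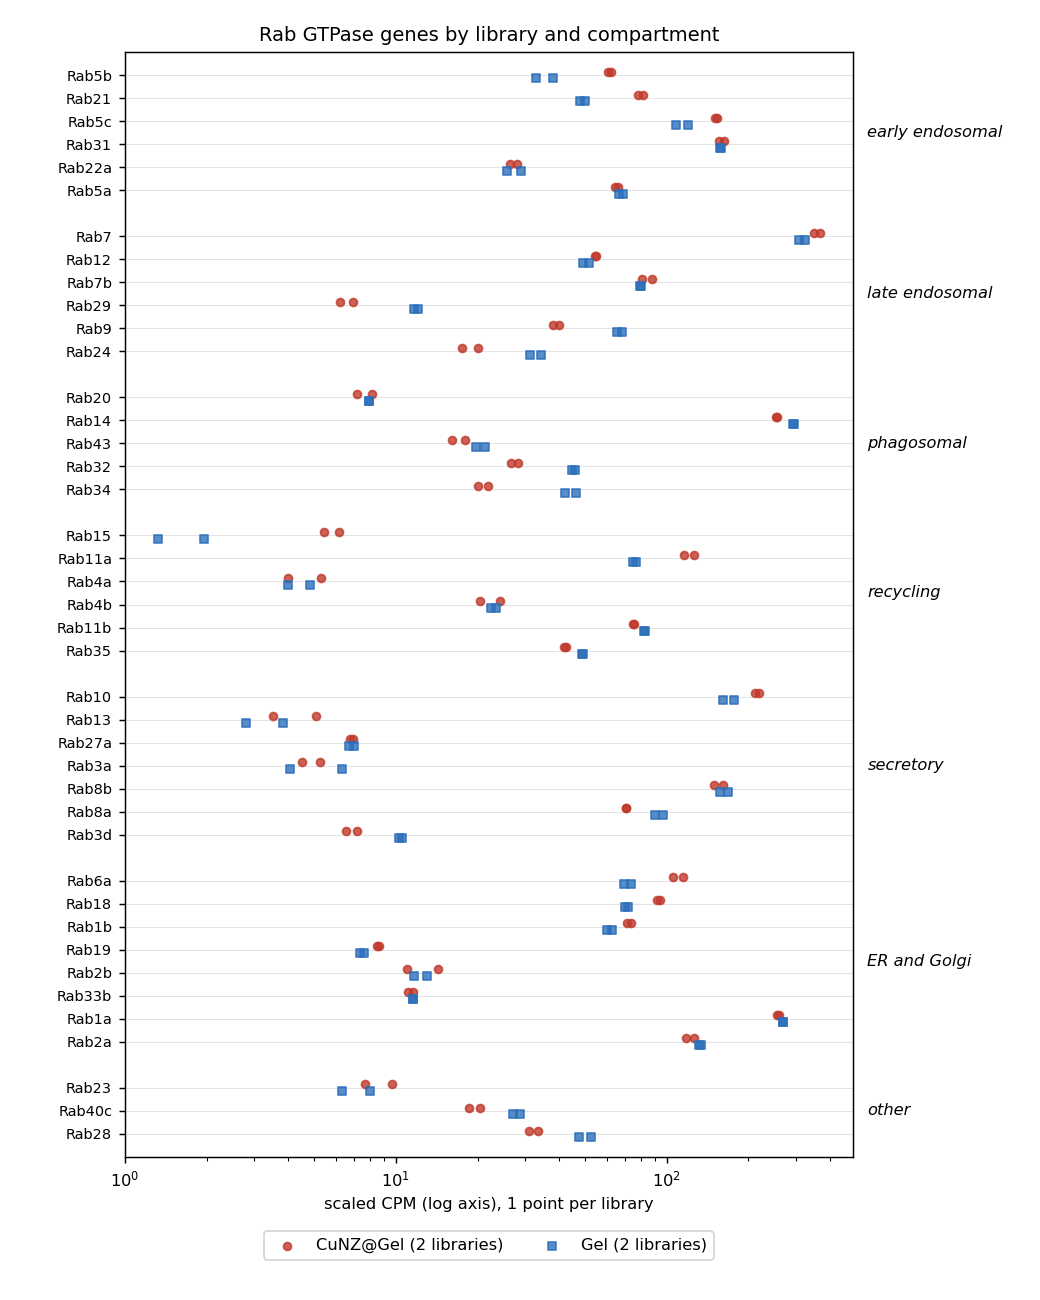
Scaled CPM of the tested Rab members in each library on a log axis, by compartment class, with CuNZ@Gel and Gel libraries as separate points. The values run from 1.32 scaled CPM for Rab15 in a Gel library to 366 for Rab7 in a CuNZ@Gel library.

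Divided by transcript length, Rab7 was the most abundant member in both groups, with 165 scaled CPM per kb with CuNZ@Gel and 146 with Gel. Rab1a, Rab14 and Rab5c came next with CuNZ@Gel, at 90.8, 82.3 and 77.1 scaled CPM per kb. With Gel the order after Rab7 was Rab14 at 95.3, Rab1a at 94.9 and Rab2a at 62.1. Rab9, at 26.9 scaled CPM per kb with CuNZ@Gel, stood at 46.2 with Gel. Rab15, at 1.83 scaled CPM per kb with CuNZ@Gel, was the lowest tested member with Gel at 0.519, and with CuNZ@Gel Rab3d was lower still at 1.77. The members together took 0.312% and 0.310% of the reads in the CuNZ@Gel libraries, against 0.265% in each Gel library. In scaled CPM their sum was 2915 ± 20.9 with CuNZ@Gel and 2828 ± 4.2 with Gel (SD, n = 2 each).

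Within the Rab11, Rab5, Rab1, Rab7 and Rab8 families the share of each paralogue did not overlap between the groups. The values of 83.2% of all tested genes did not overlap either, and the Rab7 share differed by only 0.72 percentage points. In the Rab3 family Rab3d had 33.3% and 38.9% with CuNZ@Gel and 50.9% and 39.3% with Gel. The shares of Rab2a and Rab2b and of Rab4a and Rab4b overlapped. Rab11a made up 80.2% and 81.4% of the Rab11 level per kb in the CuNZ@Gel libraries, against 70.8% and 70.3% in the Gel libraries, a difference of 10.2 percentage points. Rab11b held the remainder. Within Rab5, Rab5b had 15.7% and 15.4% with CuNZ@Gel and 11.8% and 11.1% with Gel. Rab5a had 21.8% and 22.6% of the Rab5 level with CuNZ@Gel and 28.4% and 30.0% with Gel. Rab5c was the largest part of the Rab5 level in every library, at 62.5% and 62.0% with CuNZ@Gel and 59.8% and 58.9% with Gel. The summed Rab5 level was 278 ± 2.3 scaled CPM with CuNZ@Gel and 217 ± 13.3 with Gel (SD, n = 2 each). For Rab1, where the sum was 329 scaled CPM with CuNZ@Gel and 330 with Gel, the share of Rab1a was 71.0% and 70.0% with CuNZ@Gel, against 74.3% and 75.1% with Gel. Shares were not tested, since 2 against 2 libraries are too few for an exact permutation test to pass 0.05, and reads of close paralogues may have been divided between them in counting.

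**Figure D3:**
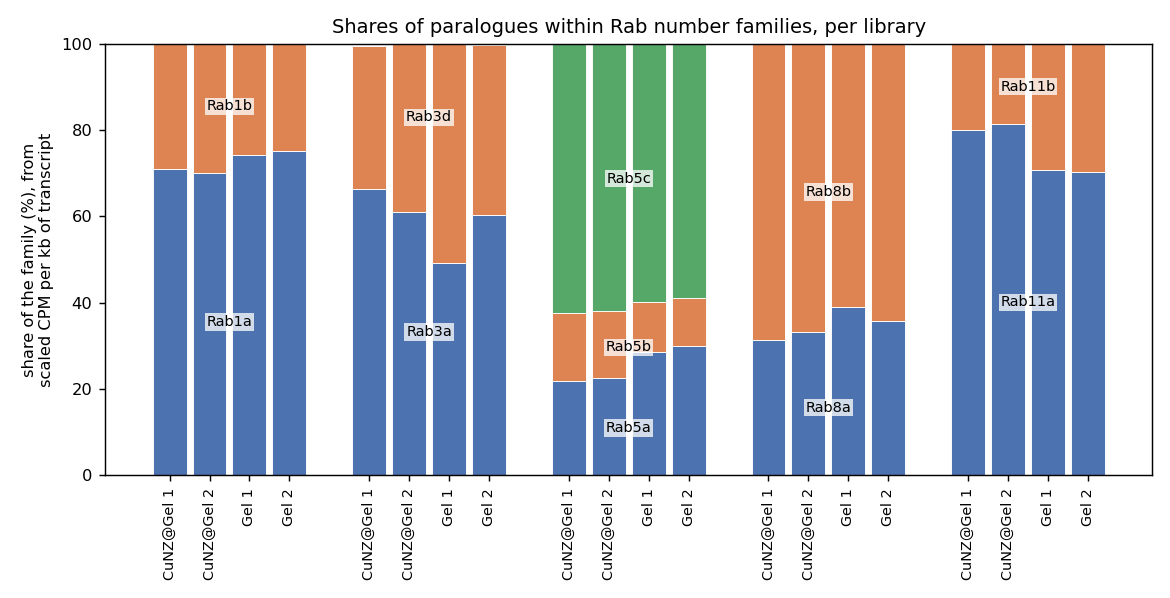
Share of each paralogue in the level per kb of its number family, in percent, for each library of CuNZ@Gel and Gel. Rab11a stands at 80.2% and 81.4% with CuNZ@Gel and at 70.8% and 70.3% with Gel.

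Among the genes that load, unload and read the Rabs, 115 were listed and 101 were tested. Of those tested, 36 were raised, 28 were lowered and 37 were not called. The share called was 63.4%, beside 67.1% of all tested genes. It was 62.5% for exchange factors, 65.6% for GTPase-activating proteins and 65.5% for effectors. Differences between these lists and all tested genes were not tested. The escort and recycling machinery changed member by member, with 2 of 8 raised and 2 lowered, or 50% called. Gdi2, a GDP dissociation inhibitor that takes inactive Rabs off membranes, had 654 and 632 scaled CPM with CuNZ@Gel, against 794 and 817 with Gel, and so was lower in both CuNZ@Gel libraries (log2 change -0.33, adjusted p = 4.83e-05). The Gdi2 change was -0.14 with total reads only and -0.55 after correction for length and GC content. Rabggtb, the beta subunit of the enzyme that attaches geranylgeranyl groups to Rabs, had 47.5 and 43.8 scaled CPM with CuNZ@Gel, against 71.7 and 68.1 with Gel (log2 change -0.60, adjusted p = 1.21e-06). Chm, the Rab escort protein that presents Rabs to that enzyme, had 33.7 and 24.6 scaled CPM with CuNZ@Gel, against 18.0 and 18.9 with Gel, higher in both CuNZ@Gel libraries (log2 change 0.61, adjusted p = 0.000192). The Chm change was 0.39 without CuNZ@Gel replicate 1, 0.36 after correction for length and GC content, and not past the threshold with no filter on low values (adjusted p = 0.0504).

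Exchange factors switch Rabs on. Of 33 listed 32 were tested, with 11 raised, 9 lowered and a median log2 change of 0.10. After correction for length and GC content 8 were raised and 10 lowered, with a median of -0.11. Rab3il1, an exchange factor of the Rabin family, had 37.9 and 29.9 scaled CPM with CuNZ@Gel, against 103 and 108 with Gel, the largest fall in this list (log2 change -1.62, adjusted p = 2.88e-12). Dennd2d, of the DENN family, had 31.6 and 29.4 scaled CPM with CuNZ@Gel and 65.5 in each Gel library, also clear of each other (log2 change -1.08, adjusted p = 4.08e-10). Dennd5a, a DENN protein that binds Rab6, had 76.1 and 67.6 scaled CPM with CuNZ@Gel, against 43.3 and 47.1 with Gel, higher in both CuNZ@Gel libraries (log2 change 0.66, adjusted p = 6.61e-07). Rin3, an exchange factor of the Rab5 subfamily, had 40.6 and 42.0 scaled CPM with CuNZ@Gel, against 26.5 and 25.8 with Gel (log2 change 0.64, adjusted p = 3.35e-06). Rab3il1 and Dennd2d were the only exchange factors of the list to pass the minimum change of 1.5-fold, and Dennd2d shares 771 exon bases with Cept1 on the opposite strand, which averaged 82.9 scaled CPM with CuNZ@Gel and 79.3 with Gel.

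GTPase-activating proteins, many of them of the TBC family, switch Rabs off. Of 34 listed 32 were tested, with 10 raised and 11 lowered and a median log2 change of 0.11. After correction for length and GC content 11 were raised and 11 lowered, with a median of -0.08. Tbc1d16, which acts on Rab4, had 37.9 and 38.2 scaled CPM with CuNZ@Gel, against 89.2 and 92.5 with Gel (log2 change -1.23, adjusted p = 1.1e-11). Grtp1 had 8.38 and 8.88 scaled CPM with CuNZ@Gel, against 26.6 and 28.0 with Gel (log2 change -1.56, adjusted p = 2.91e-10). Both lay far lower with CuNZ@Gel, and Grtp1 shares 249 exon bases with Lamp1 on the opposite strand, a lysosomal membrane gene that averaged 1372 scaled CPM with CuNZ@Gel and 1560 with Gel. Tbc1d17 had 13.3 and 14.7 scaled CPM with CuNZ@Gel, against 32.2 and 26.2 with Gel (0.480 times the Gel level, adjusted p = 2.37e-07), and 3423 of its exon bases overlap Il4i1 on the opposite strand, which averaged 0.411 scaled CPM with CuNZ@Gel and 2.73 with Gel. Sgsm1, which joins a RUN and a TBC domain, went the other way with 32.2 and 29.4 scaled CPM with CuNZ@Gel, against 12.0 and 10.0 with Gel (log2 change 1.41, adjusted p = 1.26e-09).

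Effectors carry out what an active Rab calls for. Of 40 listed 29 were tested, with 13 raised and 6 lowered and a median log2 change of 0.21, but after correction for length and GC content 8 were raised and 9 lowered with a median of -0.01. Rilpl2, which binds phosphorylated Rab8 and Rab10, had 51.4 and 54.6 scaled CPM with CuNZ@Gel, against 206 and 197 with Gel. This was the largest fall among the 101 regulators and effectors tested (log2 change -1.91, adjusted p = 1.83e-15). Eea1, the Rab5 effector that tethers early endosomes, had 203 and 194 scaled CPM with CuNZ@Gel, against 98.3 and 101 with Gel, and was higher in both CuNZ@Gel libraries (log2 change 0.98, adjusted p = 2.74e-11; 0.55 after the correction). Lrrk2, the kinase that phosphorylates Rab8, Rab10 and others, had 42.5 and 38.5 scaled CPM with CuNZ@Gel, against 18.6 and 19.5 with Gel (log2 change 1.05, adjusted p = 8.85e-09; 0.62 after the correction). Exoc6b, an exocyst subunit of the family that binds Rab11, had 36.8 and 33.1 scaled CPM with CuNZ@Gel, against 14.6 and 16.0 with Gel, again without overlap (log2 change 1.15, adjusted p = 7.02e-09).

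**Figure D4:**
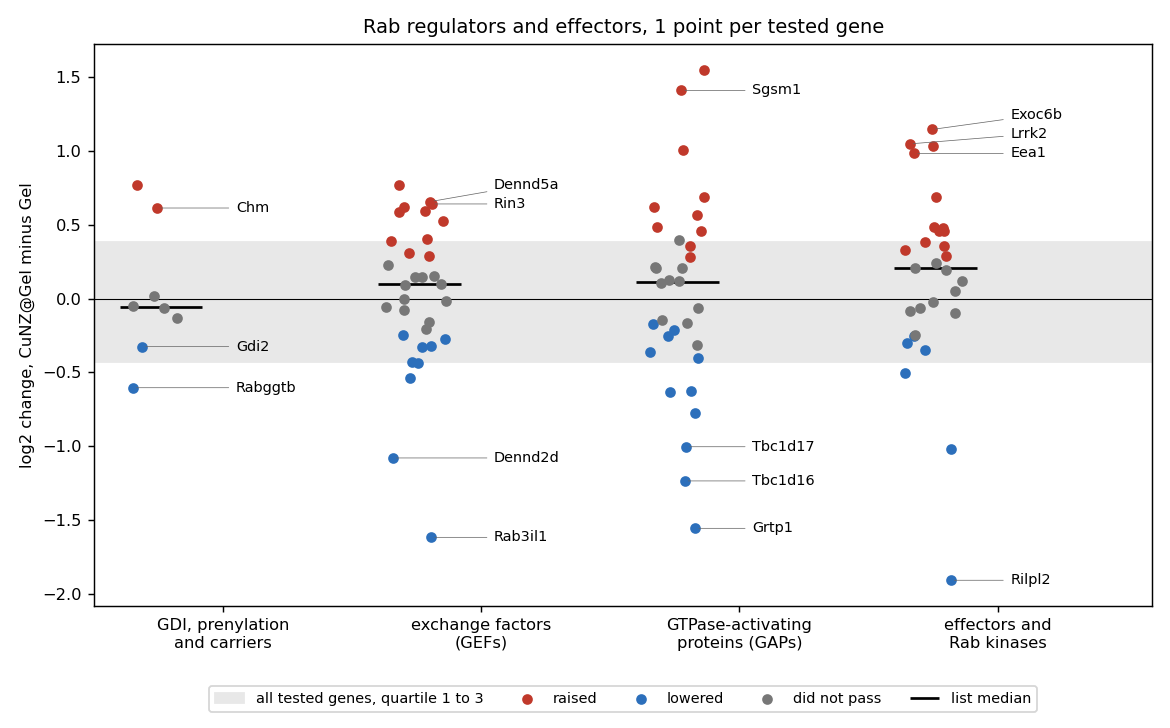
Log2 change, CuNZ@Gel minus Gel, of the tested Rab regulators and effectors, with 1 point per gene in 4 lists (membrane cycle, exchange factors, GTPase-activating proteins, effectors), black bars for the list medians and a grey band for the quartiles of all tested genes, -0.43 and 0.38. Of 101 genes 36 were raised and 28 lowered, and Rilpl2 at -1.91 is the lowest point.

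The 18 members below the level for testing were rare or unseen. Rab3c, Rab9b, Rab17, Rab26, Rab36, Rab38 and Rab39b were listed at 0 in all 4 libraries, where 3 reads would be 0.189 and 0.191 scaled CPM in the CuNZ@Gel libraries and 0.217 and 0.234 in the Gel libraries. The other 11 had at most 0.536 scaled CPM on average in either group. Rab33a had 14 and 3 reads in the CuNZ@Gel libraries and 1 and 0 in the Gel libraries, and Rab42 had 13 reads in each group. Rab27b, the paralogue of Rab27a, had 1 read in each group.

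Change and transcript length were related among the members about as among all genes. Pearson's r between the log2 change and log2 transcript length was 0.30 over the 41 tested members and 0.31 over the 11097 tested genes with a length, and with GC content it was -0.23 and -0.19. These are correlations across genes of the same 4 libraries, and genes are not independent replicates. The median transcript length was 3169 bases for raised members, 2149 for lowered members and 2866.5 for those not called. After correction for length and GC content 13 members were raised and 15 lowered, beside 30.1% and 35.5% of all genes, 19 of the 21 called members were called in the same direction, Rab18 and Rab35 were not, and 9 further members were called. These were Rab4b, Rab12, Rab13 and Rab19, raised, and Rab1a, Rab8b, Rab11b, Rab22a and Rab43, lowered.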

How the data were processed

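RNA was measured in 4 libraries of RAW264.7 cells, grouped by sample title into CuNZ@Gel and Gel with 2 libraries each. TaKaRa RNAiso Plus was used for extraction and the CORALL RNA-seq V2 kit for the libraries, per the labels' protocols. The authors deposited 1 log2 value per gene symbol and library, to 3 decimals. The build GRCm39 and the tools GATK, Salmon, STAR and fastp are named, per the submitters' processing notes. For their versions and roles, the annotation, the use of strand and the normalization, nothing is stated in these notes or the labels. Judged by the values, each deposited log2 value is log2(x + 1), with x a CPM divided by 1 factor per library (1.07 and 1.07 for CuNZ@Gel, 0.937 and 0.936 for Gel). Between 93.0% and 93.7% of the values up to 1 equalled whole multiples of the smallest step within 0.02 reads, which gave the reads and totals. Limits from reads cover counting error only.

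Every gene that reached 1 scaled CPM in 2 libraries or more was tested with limma 3.58.1 under R 4.3.3, on the deposited log2 values with a trend of variance on the mean and the group alone as term. P-values were adjusted by Benjamini-Hochberg over all 11588 tested genes, with a threshold of 0.05, and the fit was tested on simulated data. The pseudocount of 1 in log2(scaled CPM + 1) makes the change of low genes look smaller than it is. The design named a count test for files of counts, and the log2 test for other files was the one used. Alternatives were other scaling factors, limma-voom on recovered reads, other filters and pseudocount, a minimum fold, splines of length and GC content with 4 degrees of freedom each, libraries left out and replicate blocks. Transcript length, GC content and overlaps came from the GENCODE vM21 annotation of GRCm38, matched by symbol, and promoter sequences from RefSeq on GRCm38.p6. Length and GC content, available for 95.8% of tested genes and all tested members, were those of the longest protein-coding transcript. Where no transcript was protein-coding, the longest was used. Overlaps were taken over the exons of all transcripts.

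The members follow a rule on gene symbols and the classes and regulator lists general knowledge, all chosen with earlier results of these data known. Named were Rab5a, Rab7, Rab11a, Rab27a and Rab32, up to 4 called members per class and up to 4 called genes per regulator list by smallest p, and the 5 raised and 5 lowered members of largest change. Other members appear by range or mean. A gene that this rule names among the regulators is not reported here.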

Additional observations from a re-analysis of the deposited data

How the results depend on the processing

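Of the 21 called members, 18 were called with every library left out in turn and 16 under all 14 alternatives other than the minimum fold. Leaving out libraries gave 9 raised and 10 lowered members each time, 6515 to 7064 called genes, 0 to 1 raised late endosomal members, 0 lowered recycling members, 16 to 24 lowered regulators and effectors, 3 to 7 lowered exchange factors and 7 to 10 lowered GTPase-activating proteins. With no filter, 0 late endosomal members and 1 membrane cycle gene were raised. Upper-quartile factors gave 0 lowered recycling members.

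With total reads only, 16 members were raised (4 early endosomal, 3 late endosomal, 2 recycling, 2 secretory, 4 of the endoplasmic reticulum and Golgi and 1 in no compartment) and 0 recycling members were lowered; 14 regulators and effectors were lowered (2 membrane cycle genes, 3 exchange factors, 6 GTPase-activating proteins, 3 effectors) and 17 GTPase-activating proteins were raised. Length and GC correction gave 1 lowered early endosomal and 1 lowered Golgi member, 2 raised late endosomal and 2 raised secretory members and 8 raised effectors; Rab4b went to 0.38 (adjusted p = 0.00232), against -0.04. The causes were not tested.

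A minimum fold of 1.5 left 1955 called genes, 1 raised member (recycling), 1 lowered member (phagosomal) and 0 in every other class, 7 raised and 6 lowered regulators and effectors, namely 0 and 2 exchange factors, 3 and 3 GTPase-activating proteins, 4 and 1 effectors, and 0 membrane cycle genes.

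The deviations of same-numbered libraries correlated at -0.12. The replicate block gave 7489 called genes (64.6%) and 9 raised and 10 lowered members, with 0 raised late endosomal and 0 lowered recycling members. The crossed replicate block, added after seeing the data, gave 8370 called genes (72.2%) and 10 raised and 14 lowered members, with 2 lowered recycling members and 1 lowered Golgi member. With 2 libraries a group, small changes such as those of Rab7, Rab1b and Rab35 are near the limit of detection.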
